A study of Homo sapiens with 72 samples.

Results

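In REH cells, 229 of 20033 protein-coding genes (1.14%) carried H3K4me2 at a transcription start without a called H3K4me3 peak. The genes were chosen by peak calls in REH. A gene was taken when an H3K4me2 peak lay within 1 kb of an annotated start in 3 of 3 untreated REH libraries, when no H3K4me3 peak lay within 1 kb of any start in any of the 6 REH H3K4me3 libraries, untreated or treated, and when fewer than 2 of 3 untreated libraries had H3K27me3 there. Of 10856 genes with H3K4me2 in 3 of 3 libraries, 416 had no H3K4me3, and 187 of those were set aside for H3K27me3. The 7706 genes with H3K4me2 in 3 of 3 and H3K4me3 in 6 of 6 REH libraries, under the same H3K27me3 condition, are the comparison set, called genes with both marks below.

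The data were Cut&Tag libraries, in which an antibody against a histone mark directs a transposase to cut and tag the DNA around it. REH and NALM6 are B-cell precursor acute lymphoblastic leukemia lines, and Raji is a Burkitt lymphoma line that carries the Epstein-Barr virus. Each line was left untreated or treated with 1 nM bryostatin (overnight by the labels, a full day by a legend of the study), a macrocyclic lactone that activates protein kinase C, and H3K4me2, H3K4me3 and H3K27me3 were each profiled in 3 replicates per group. The labels number the replicates without saying whether they came from separate cultures, so the p-values measure the spread between these libraries, which may be technical.

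H3K4me3 marks the starts of genes that are transcribed or ready to be, and is laid down most strongly over CpG-rich promoters by SET1 and MLL complexes that bind unmethylated CpG. H3K4me2 flanks the same starts, and also covers enhancers and the starts of lineage genes held in a permissive state before they are transcribed. H3K27me3 is the mark of Polycomb repression. No RNA was measured here, so a mark is read as a mark and not as expression.

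The absence of H3K4me3 means that no peak was called, and the libraries differed in what was called. The REH H3K4me3 libraries held 10.2 to 27.9 M mapped reads, as recovered from the coverage steps, and their lowest called peak was 23 to 74 reads high. Untreated replicate 1 was the deepest and called the most H3K4me3 peaks, 11809. Peak number did not follow depth throughout. Untreated replicate 3, with 10.2 M reads, called 9230, and untreated replicate 2, with 18.8 M, called 7509. Untreated replicate 1 decided much of the outer edge of the class. There were 260 genes that met every other condition but had an H3K4me3 peak in 1 of 6 libraries. In 258 of them that library was untreated replicate 1, and the reason was not tested. UQCC2, UMODL1 and GPR146 were the genes of this kind with the highest H3K4me2, at 4.23, 3.88 and 3.71 times the median H3K4me2 region of a library. Just inside the limit, the nearest H3K4me3 peak lay 1020 bp from a start of FGF8 and 1121 bp from a start of CD69. The 3 untreated REH H3K4me2 libraries held 13.7 to 18.8 M reads. Of the 9 B-precursor marker genes, all had H3K4me2 in 3 of 3 untreated REH libraries and 7 had H3K4me3 in 3 of 3, while of 11 markers of other lineages only CD8A and MPO had H3K4me2 in any. VPREB1 was the B-precursor marker among the 229 genes.

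The promoter sequences of 6 of the genes are shown because they span the results that follow. NKG7, S100A4 and BATF passed the test for higher H3K4me2 after bryostatin, BATF less stably than the others, LCK was among the strongest H3K4me2 promoters of the class, and BIRC3 and FGR carried strong H3K4me3 in Raji. Each is the RefSeq window on GRCh38.p14, 250 bases before to 50 after the start, read 5′ to 3′ on the strand of the gene. Capitals mark matches, on either strand, to the short cores of binding motifs that were searched, whose letters are given with their shares below. The capitals are a RUNX core in BATF, PU.1-type cores in FGR, an EBF core in NKG7, an E-box, an EBF core and a TATA box core in S100A4, PU.1-type, RUNX and E-box cores in BIRC3, and RUNX, E-box and 2 overlapping EBF cores in LCK.
NKG7, chr19:51372605-51372904, minus strand: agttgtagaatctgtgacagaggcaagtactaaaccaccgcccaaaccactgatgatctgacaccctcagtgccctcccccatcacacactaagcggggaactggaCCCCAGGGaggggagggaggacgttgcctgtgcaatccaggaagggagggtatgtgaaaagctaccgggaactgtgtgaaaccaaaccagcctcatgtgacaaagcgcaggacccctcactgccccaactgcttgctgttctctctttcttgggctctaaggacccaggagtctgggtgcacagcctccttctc
S100A4, chr1:153545757-153546056, minus strand: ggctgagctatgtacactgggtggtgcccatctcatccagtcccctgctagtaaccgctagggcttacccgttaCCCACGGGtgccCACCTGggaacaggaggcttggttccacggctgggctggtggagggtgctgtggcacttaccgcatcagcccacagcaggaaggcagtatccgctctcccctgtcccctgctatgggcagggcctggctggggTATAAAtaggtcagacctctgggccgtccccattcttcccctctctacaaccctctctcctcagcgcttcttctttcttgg
BATF, chr14:75522219-75522518, plus strand: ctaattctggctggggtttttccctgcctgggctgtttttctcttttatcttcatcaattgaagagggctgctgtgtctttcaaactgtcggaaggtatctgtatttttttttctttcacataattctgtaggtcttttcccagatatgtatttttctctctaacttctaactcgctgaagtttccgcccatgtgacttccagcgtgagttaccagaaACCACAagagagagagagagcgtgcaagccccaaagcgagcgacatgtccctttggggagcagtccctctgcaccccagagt
LCK, chr1:32251015-32251314, plus strand: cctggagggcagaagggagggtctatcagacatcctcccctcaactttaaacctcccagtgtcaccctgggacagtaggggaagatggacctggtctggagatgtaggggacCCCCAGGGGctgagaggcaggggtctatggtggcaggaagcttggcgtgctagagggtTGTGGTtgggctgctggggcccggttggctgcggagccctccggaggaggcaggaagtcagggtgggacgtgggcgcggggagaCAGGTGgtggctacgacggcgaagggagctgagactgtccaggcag
BIRC3, chr11:102317234-102317533, plus strand: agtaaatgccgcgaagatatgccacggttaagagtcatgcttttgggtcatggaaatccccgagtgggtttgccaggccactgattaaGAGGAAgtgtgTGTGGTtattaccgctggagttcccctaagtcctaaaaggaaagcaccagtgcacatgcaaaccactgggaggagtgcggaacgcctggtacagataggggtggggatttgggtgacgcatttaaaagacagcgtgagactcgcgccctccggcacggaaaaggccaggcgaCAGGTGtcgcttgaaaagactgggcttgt
FGR, chr1:27635136-27635435, minus strand: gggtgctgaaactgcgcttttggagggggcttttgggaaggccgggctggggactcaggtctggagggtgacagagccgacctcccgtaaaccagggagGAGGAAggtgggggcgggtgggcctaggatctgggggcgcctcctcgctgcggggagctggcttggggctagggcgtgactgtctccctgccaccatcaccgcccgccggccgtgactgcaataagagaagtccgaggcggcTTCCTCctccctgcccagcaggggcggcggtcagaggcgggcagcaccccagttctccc
An H3K4me2 peak of REH covered part of these windows in 3 of 3 untreated libraries, and in 2 of 3 for FGR. The ratio of observed to expected CpG was 0.213 in the NKG7 window, 0.293 in S100A4, 0.358 in LCK, 0.443 in BATF, 0.522 in FGR and 0.736 in BIRC3.

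The class as a whole was poor in CpG. In 300-base windows read from hg38 at the Ensembl canonical start of each gene, the median ratio of observed to expected CpG was 0.380 (interquartile range 0.230 to 0.705, n = 229), against 0.888 (0.774 to 0.983) at 7705 genes with both marks and 0.775 at 20032 protein-coding genes. A ratio of at least 0.6 was found at 75 of the 229 genes (32.8%) and at 92.4% of genes with both marks. GC content differed less, with a median of 62.3% against 67.7%. The 187 genes set aside for H3K27me3 were CpG-rich, with a median ratio of 0.801, and the 7373 genes with neither H3K4 mark in any REH library were CpG-poor, with 0.375. Only 141 of the 229 canonical windows were covered by H3K4me2 in 3 of 3 untreated libraries, since the peak of the others lay beside the window or at another start, and in those 141 the median was 0.422.

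The motif cores, counted on either strand and with overlaps allowed, differed in share between promoter classes. The ETS core, spelled CCGGAA, was found in 5.68% of the 229 windows, against 33.3% at genes with both marks and 22.7% at all genes. The ETS core of the PU.1 type, spelled GAGGAA, was found in 38.9%, against 25.6% of genes with both marks and 27.3% of all genes. The core of EBF, the B-lineage factor, spelled CCCNNGGG, was found in 35.4% of the windows, against 24.2% and 21.9% in the same order. The E-box bound by E2A factors, spelled CAGGTG, was found in 26.2%, against 16.5% and 20.4%. The core of RUNX factors, spelled TGTGGT, was found in 15.7%, against 7.98% and 10.7%. The TATA box core, spelled TATAAA, stood in 12.2% of the windows, against 4.09% and 9.71%. The AP-1 core, spelled TGANTCA, stood in 5.24%, against 2.83% and 5.44%, and a core of the interferon response type in 3.49%, against 2.53% and 3.28%. Among the 49 genes with H3K4me3 in 3 of 3 untreated Raji libraries, the PU.1-type core was in 49.0% and the RUNX core in 26.5%, against 32.5% and 12.5% of the 160 genes with none there. The E-box was also higher in this split (34.7% against 24.4%). The EBF core (28.6% against 38.1%) and the TATA box core (8.16% against 13.1%) were lower, and the other cores differed by less. The 7373 genes with neither H3K4 mark, which are as poor in CpG, held the E-box at 24.5%, the RUNX core at 13.9%, the PU.1-type core at 28.4% and the EBF core at 17.5%, and the TATA box core at 17.7%, above its share here. The 187 genes set aside for H3K27me3 held the EBF core at 32.1%, the E-box at 25.1% and the PU.1-type core at 29.9%. These are matches of letters and not binding sites, the shares were not tested, and base composition differs between the sets.

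At these genes the called H3K4me2 length was shorter, and the signal lay less squarely on a start, than at genes with both marks. The median called length, summed over the peaks at all annotated starts of a gene, was 2470 bp (interquartile range 1910 to 3620) against 3230 bp. Position was taken from the nearest start. The 229 genes had a median of 5 annotated starts, and genes with both marks had 8. Each of these measures depends on the number of starts, which was not matched. The base of highest signal lay within 500 bp of a start at 146 genes (63.8%), against 81.4% of genes with both marks, and a start lay inside the peak in 3 of 3 libraries at 193 genes (84.3%) against 99.5%. The nearest REH H3K4me3 peak was a median of 29751 bp away. It lay within 5 kb of a start at 36 genes and beyond 100 kb at 38. At 30 genes the window held a start of another protein-coding gene and at 35 a start of a long noncoding RNA, so the peak cannot be given to 1 gene there. S100A4, which encodes a calcium-binding protein, shares its window with S100A3.

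The signal at most of these genes was below that of the median region. Levels are given as the total signal of the peaks in the windows of all annotated starts of a gene. They are divided by the median region of that library, taken over the regions called in all 6 libraries of the line and mark. They are a description, since the peaks themselves chose the genes. The median level was 0.618 (interquartile range 0.451 to 1.01, full range 0.328 to 6.91), with 58 genes above the median region. At genes with both marks, which have more starts to sum over, the median level was 1.10. The highest level was at MYO7B, an unconventional myosin, with 6.91, 7.46 and 6.25 in the 3 untreated libraries. A start of it lay inside a peak, and the peaks at its starts summed to a median of 14620 bp. The base of highest signal was 5999 bp downstream of the nearest start. TBC1D10C, a GTPase-activating protein of lymphocytes, had 4.54, 4.82 and 5.16. LCK, the Src-family kinase of T-cell receptor signalling, had 2.38, 2.39 and 2.29, with the highest base 137 bp from a start and the nearest H3K4me3 peak 9354 bp away. NHLRC4, FUT7 (the fucosyltransferase that makes selectin ligands) and RGS3 had median levels between that of TBC1D10C and that of LCK, and the neighbouring water channel genes AQP5 and AQP6 reached the same range in replicates 1 and 3 through 1 peak that both windows touch.

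Immune genes of other lineages were present among the 229, next to a few B-lineage genes. Of 42 B-lineage genes listed, 4 were in the class (CD27, LILRB1, TNFRSF13B and VPREB1), and 13 had both marks. Of 48 T-cell and natural killer genes, 4 were in it, among them LCK, LAT (the adaptor downstream of the T-cell receptor) and NKG7 (a cytotoxic granule protein). Only 1 of those 48 had both marks. Of 45 myeloid genes, CSF2RA, FGR and LILRB2 were in it, and 2 had both marks. Of 32 erythroid, megakaryocyte and mast-cell genes, 3 were in it, among them GP9 and ITGA2B, which encode subunits of platelet receptors, and 1 had both marks. Of 42 adhesion and homing genes there were 4 (CCR7, CD244, CD69 and SELPLG), of 49 genes of the phorbol ester and calcium response 1 (RASGRP4), and of 53 interferon and antigen presentation genes 1 (IFI6). By family, 4 of 33 genes named as ligands or receptors of the tumour necrosis factor family and 3 of 21 S100 genes were in the class, against 1 of 515 ZNF genes and 0 of 416 olfactory receptor genes. These were the highest and some of the lowest shares of the families counted. Between them lay 3 of 47 leukocyte Ig-like receptor genes, 6 of 373 solute carriers and 1 of 74 interleukins and their receptors. These counts stand beside the 1.14% of all protein-coding genes and were not tested.

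The marks at these genes in NALM6 and Raji were not used to choose them. H3K4me2 was called at a mean of 36.2% ± 15.7 of the 229 genes per untreated NALM6 library (SD, n = 3) and 40.8% ± 6.63 per untreated Raji library (SD, n = 3). Over all protein-coding genes the means were 38.9% and 51.2%, and at genes with both marks in REH 77.8% and 92.2%. H3K4me3 was called at 9.75% ± 8.08 (SD, n = 3) in NALM6 and 24.7% ± 4.71 (SD, n = 3) in Raji, against 45.9% and 53.1% of all genes. So the 229 genes were near or below all genes in H3K4me2 and below them in H3K4me3 in both lines. In each of the 12 H3K4me3 libraries of these lines the share of the 229 genes was lower than that of all genes. In NALM6, replicate 1 has another scaling of the signal and called the fewest H3K4me2 peaks at these genes in both groups, 44 untreated and 37 treated.

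**Figure D1:**
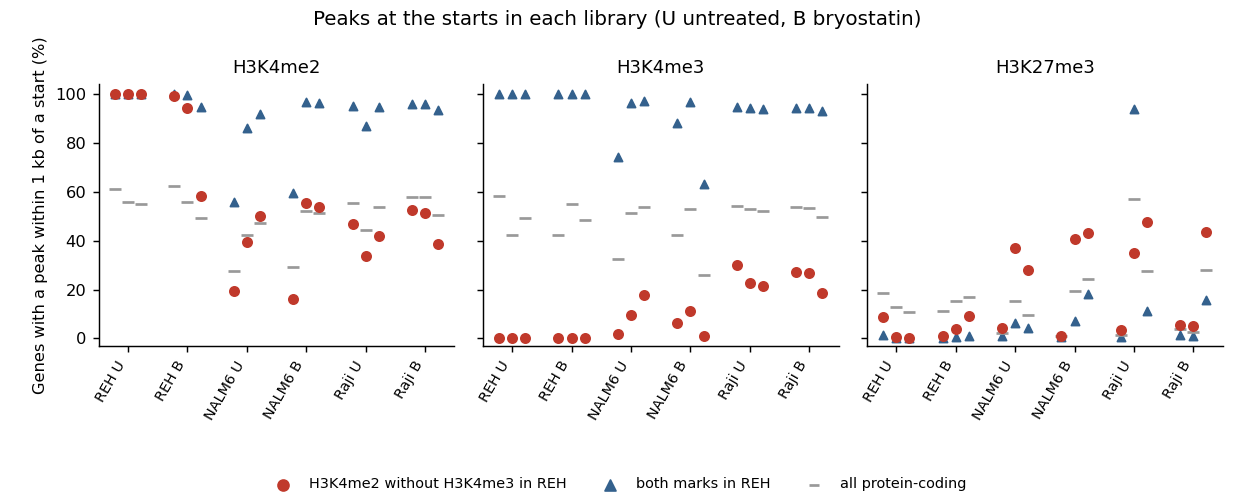
The share of genes with a peak within 1 kb of a start is plotted on the y axis for each library, in panels by mark and with groups of 3 replicates on the x axis, for the 229 genes (red circles), genes with both marks in REH (blue triangles) and all protein-coding genes (grey dashes). The REH H3K4me2 untreated and H3K4me3 values of the red circles, and those of the blue triangles, are set by the rule. It also limits the untreated REH H3K27me3 values of both. In Raji the red circles for H3K4me3 lie between 18.8% and 30.1%.

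With a mark counted as present in at least 2 of 3 untreated libraries, the genes split differently in each line. In NALM6, 20 of the 229 had both H3K4 marks, 70 had H3K4me2 without H3K4me3, 44 had neither but had H3K27me3, and 95 had none of the 3 marks. In Raji the counts were 52, 44, 43 and 90. No gene had H3K4me3 without H3K4me2 in either line. H3K4me2 was present in both other lines at 45 genes and in neither at 88, among them LAT, CD93, CD244, GP9, ITGA2B and WT1. Of these, 67 had no H3K4me2 or H3K4me3 peak in any of the 12 untreated libraries of the other lines. H3K4me3 was present in Raji but not NALM6 at 44 genes, in NALM6 but not Raji at 12, and in both at 8. The whole rule, applied to the other lines, found 33 genes in NALM6, 8 of them shared with REH (24.2% of the 33 and 3.49% of the 229), and 42 in Raji, 9 of them shared (21.4% and 3.93%). CCR7, STING1 and NLRP3 were among the shared genes of NALM6, and LCK, GPER1 and GGT5 among those of Raji.

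**Figure D2:**
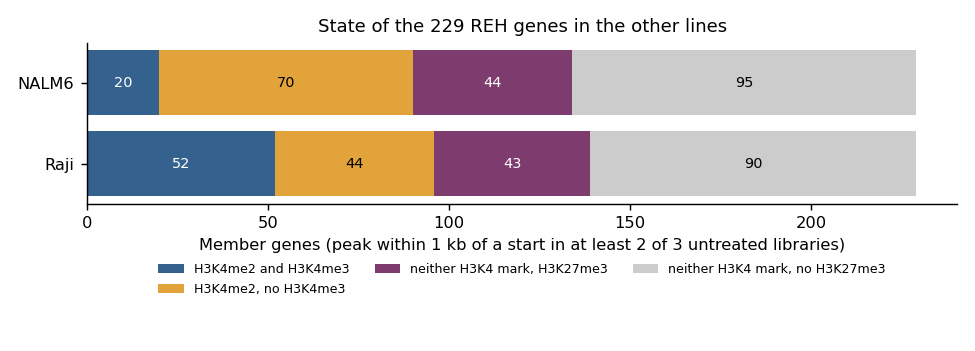
The number of genes in each state of the 3 marks is plotted as stacked bars for NALM6 and Raji, with the 229 genes along the x axis and a mark counted in at least 2 of 3 untreated libraries. Genes with both H3K4 marks number 20 in NALM6 and 52 in Raji. H3K27me3 in Raji rests mostly on untreated replicates 2 and 3, since replicate 1 had it at 8 of the 229 genes.

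In Raji, H3K4me3 was called in 3 of 3 untreated Raji libraries at 49 of the 229 genes. Levels below are relative to the median region of each Raji H3K4me3 library, and were not compared with REH levels. The highest was CTSZ, a lysosomal cathepsin, with 5.32, 5.45 and 6.01. BIRC3, an inhibitor of apoptosis that NF-kB induces, had 2.63, 2.46 and 2.33, and IL21R, the interleukin 21 receptor, had 1.99, 2.16 and 1.82. CD27, a receptor of memory B cells, had 1.23, 1.67 and 1.77. CCR7, which guides lymphocytes to lymph nodes, had 1.43, 2.10 and 1.52. TES, FGR, TMBIM1 and FGF8 also carried it in 3 of 3, and so did TNFRSF13B, LILRB1, BATF and CD69. All 6 values of each of BIRC3, IL21R, CD27, CCR7, CTSZ and FGR in the untreated and treated Raji H3K4me3 libraries came from called peaks, whereas the REH H3K4me3 libraries had no peak within 1 kb of a start at any of them. At these genes the nearest REH H3K4me3 peak was 4709 bp (CD27) to 87374 bp (IL21R) away. The H3K4me2 level in REH was below the median region at BIRC3 (0.571, 0.484 and 0.490), IL21R (0.495, 0.406 and 0.421) and CD27 (0.325, 0.409 and 0.328).

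In NALM6, H3K4me3 was called in 3 of 3 untreated libraries at 4 of the 229 genes. VPREB1, which encodes a chain of the surrogate light chain of the pre-B-cell receptor, had levels of 1.10, 1.72 and 1.73 there. In REH its H3K4me2 level was 0.917, 0.511 and 0.649, its start lay inside the peak in 0 of 3 libraries, and the nearest H3K4me3 peak was 51745 bp away. In Raji it had none of the 3 marks in any untreated library. The others were TBXA2R (the thromboxane receptor), C2CD2 and LCN8, with levels from 0.107 to 0.376.

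H3K27me3, which the rule kept low in REH, was called in at least 2 of 3 untreated libraries at 64 of the 229 genes in NALM6 (27.9%, against 9.64% of all genes) and at 62 in Raji (27.1%, against 16.1%). LCN10 and ELN, the gene of elastin, had it in 3 of 3 untreated libraries of both lines. C1QL1 and TESC had it in 3 of 3 in Raji and 2 of 3 in NALM6, and TESC also had H3K4me3 in 3 of 3 in Raji. In Raji, 54 of the 62 had it in exactly 2 libraries, untreated replicates 2 and 3. Untreated replicates 1, 2 and 3 had it at 8, 80 and 109 of the 229 genes. Replicates 1 and 3 shared it at 8 of the 229 genes and at 278 of all genes. The H3K27me3 libraries of Raji were uneven: untreated replicate 2 had a peak at 93.9% of genes with both marks, where replicates 1 and 3 had 0.558% and 11.4%. Without it, chosen after its values were seen, the mean share was 25.5% of the 229 genes, 5.96% of genes with both marks and 14.4% of all genes.

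Bryostatin raised H3K4me2 at some of these genes in REH. Peaks of the 6 REH H3K4me2 libraries were merged into regions, and the log2 total signal of each region called in all 6 was centred on the library median and compared with limma over all regions, with adjusted p under 0.05 as the threshold. Of all regions tested, 157 of 10791 (1.45%) passed, 153 of them (1.42% of the regions) higher after bryostatin. Of the 260 regions at the 229 genes, 138 were called in all 6 libraries and could be tested, and 15 of these (10.9%) passed, all higher. Each region tested, at these genes or elsewhere, was called in all untreated libraries, which is what the rule asked of H3K4me2. The test also required a call in all 3 treated libraries, so at these genes entry turned mainly on the treated signal. Bryostatin replicate 3 had a peak at 58.1% of the 229 genes, against 94.7% of genes with both marks. Weak regions entered only with enough treated signal, which can favour a rise, so the shares and medians given here are not like for like. The median log2 change was 0.09 over the 138 and -0.02 over all regions. The groups did not overlap at 38 of the 138 (27.5%), against 14.7% of all regions, and 32 of the 138 (23.2%) were higher without overlap, against 7.01% of all regions. The untested regions could not contribute, and the count of REH genes with H3K4me2 in each treated library (227, 216 and 133 of 229) is not a change, since the rule fixed the untreated count at 229. Bryostatin replicate 3, which called 133, had the fewest peaks of these libraries.

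The share of regions that passed went with H3K4me3 over the whole genome. Among regions that held an H3K4me3 peak of any REH library, 32 of 9167 (0.349%) passed, and among those that held none, 125 of 1624 (7.7%). The share was 8.85% within 1 kb of a protein-coding start and 7.19% farther away. Of the 138 regions at the 229 genes, 125 held no H3K4me3 peak and 15 of them (12%) passed, against 110 of 1499 (7.34%) of the other regions without H3K4me3. Of the 13 that held one farther from the start, 0 passed. Whether the share at these genes differs from that of other H3K4me2 regions without H3K4me3 was not tested.

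The largest rises among the 15 regions were at NKG7, PI16 and CD93. NKG7 had levels of 0.485, 0.488 and 0.355 in the untreated libraries and 0.967, 1.01 and 0.947 after bryostatin, relative to the median region. All treated libraries were above all untreated ones, a rise of 1.15 on the log2 scale (SE 0.13, limma adjusted p = 0.000401). CD93, a receptor of endothelial and myeloid cells, had 0.458, 0.528 and 0.506 untreated and 0.848, 1.11 and 0.787 treated, which was 0.87 higher on the log2 scale (SE 0.13, adjusted p = 0.00378 in limma). Its groups did not overlap either. S100A4 had 0.699, 0.625 and 0.640 untreated and 1.09, 1.12 and 1.18 treated, which was 0.79 higher (SE 0.10, adjusted p = 0.000559 in limma). PI16, a peptidase inhibitor, had 0.494, 0.509 and 0.375 untreated and 1.02, 0.865 and 0.713 treated, which was 0.91 higher (SE 0.15, adjusted p = 0.00678 in limma). In both the lowest treated library exceeded the highest untreated one.

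RGS3, which speeds the switching off of G proteins, rose at both of its tested regions. At chr9:113577501-113583130 the levels were 1.70, 1.68 and 1.71 untreated and 2.94, 2.88 and 2.56 treated, 0.72 higher on the log2 scale (SE 0.08, adjusted p = 0.000444 in limma). At chr9:113592241-113597320, beside another start, they were 0.875, 0.904 and 0.908 untreated and 1.35, 1.60 and 1.68 treated, 0.78 higher (SE 0.10, adjusted p = 0.000739 in limma). The untreated libraries lay close together at both. BATF, an AP-1 family transcription factor of lymphocytes, had 0.785, 0.845 and 0.553 untreated and 1.18, 1.17 and 1.03 treated, 0.65 higher (SE 0.14, adjusted p = 0.0369 in limma). With each library left out in turn, 5 of the 15 regions kept the call throughout, those of NKG7, S100A4 and CD93 and both of RGS3. The BATF call did not (limma adjusted p up to 0.176), and its maximum signal differed by -0.00947. GPR78, an orphan G protein-coupled receptor, rose by 0.79 (adjusted p = 0.0130) and BIN2, a membrane-curving protein of leukocytes, by 0.63 (adjusted p = 0.0339). CCL3L3, a chemokine gene with near-identical copies whose reads may be split between them, rose by 0.65 (adjusted p = 0.0173). DYNLT4, GGT5, KLHL30, SIGLEC15 and TRAF3IP3 rose by 0.44 to 0.57, and the groups did not overlap at any of the 15 regions. CCR7 stood at 0.471, 0.546 and 0.468 untreated and 1.08, 1.15 and 0.548 treated. Bryostatin replicate 3 was near the untreated libraries there, and the log2 difference of 0.83 (SE 0.22) had an adjusted p of 0.0921.

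**Figure D3:**
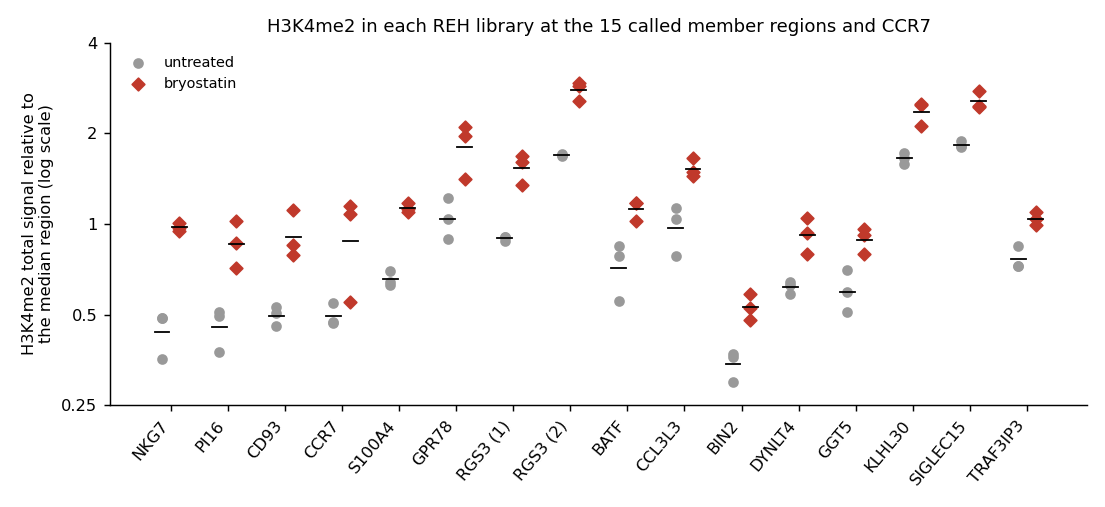
H3K4me2 total signal relative to the median region is plotted on a log2 y axis in each REH library, untreated (grey circles) and bryostatin (red diamonds), at the 15 regions that passed the test and at CCR7, ordered by log2 change; lines are geometric means of 3 libraries, and RGS3 (1) and (2) are its 2 regions. The groups do not overlap at the 15 regions; CCR7 did not pass, with 1 treated library at 0.548.

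The called peaks were longer at the regions that rose, and length is itself part of the total signal that was tested. The mean called length went from 2497 to 3397 bp at S100A4, from 2697 to 3923 bp at BATF, from 3387 to 4610 bp at CD93 and from 2430 to 3007 bp at NKG7. At CCR7, which did not pass, it was 2210 and 4707 bp. Over all tested regions the median ratio of treated to untreated length was 1.06, and over the 15 it was 1.24. It was larger over all 157 regions that passed, at 1.40. Over the 110 that passed without H3K4me3 outside these genes it was 1.43. With the mean signal per base in place of the total, 0 of the 138 regions passed, and with the maximum signal 4 did. Over all 10791 regions these measures gave 1 and 51. At an unadjusted p under 0.05 the mean signal per base gave 24 of the 138 and 719 of all regions. With the replicate number as a block, since same-numbered REH libraries deviated together, 21 of the 138 and 305 of all regions passed, with CCR7 (adjusted p = 0.0104), LAT (0.0156), KCNE3, LPAR5 and KASH5 among those added. The count over the 138 was 8 without untreated replicate 2, 5 without bryostatin replicate 1, 7 without bryostatin replicate 2 and 25 without bryostatin replicate 3. Over all regions the counts were 84, 62, 72 and 352 in the same order.

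The rule leaves no H3K4me3 at these starts in treated REH, so genes that had gained it would have been left out. Of the genes with H3K4me2 and low H3K27me3, 1 (ADAM8, in 1 of 3 treated libraries) had an H3K4me3 peak only after bryostatin, and 0 had it in 3 treated and 0 untreated libraries. The reverse, a peak in untreated libraries only, was found at 263 genes, at 0 of them in 3 untreated libraries. Untreated replicate 1, which called the most H3K4me3 peaks of the REH libraries, held the only peak at 258 genes. A peak found only after bryostatin was therefore unlikely to appear, and these counts do not measure gain or loss. H3K27me3 was called at 20, 1 and 0 of the 229 genes in the untreated REH libraries and at 2, 9 and 21 in the treated ones. These counts moved with the number of H3K27me3 peaks called, which was 48483, 18841 and 17621 in the untreated and 17141, 43247 and 46505 in the treated libraries.

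In Raji, 81 H3K4me2 regions at these genes were tested and 0 passed limma's adjusted threshold, as did 0 of 9316 regions (0%), while 11 of the 81 and 626 of all had an unadjusted p under 0.05. The groups did not overlap at 13 of the 81, against 10.7% of all regions. The smallest p among them was at ALDH3B1, an aldehyde dehydrogenase, with 1.07, 1.54 and 0.980 untreated and 0.503, 0.628 and 0.502 treated (log2 difference -1.11, SE 0.20, limma adjusted p = 0.102). For H3K4me3 in Raji, 14 of 9040 regions (0.155%) passed and 1 of the 47 at these genes did. The groups did not overlap at 5 of the 47, against 12.4% of all regions. This was CD69, the early activation antigen of lymphocytes, at chr12:9757541-9761730, over the merged region with 0.412, 0.552 and 0.454 untreated and 1.11, 0.946 and 0.878 treated, 1.05 higher on the log2 scale (SE 0.15, adjusted p = 0.0279 in limma). All treated libraries were above all untreated ones, and the call was lost without untreated replicate 1 or 3 or without any one of the bryostatin replicates, at an adjusted p of up to 0.193 in limma. With the replicate block, 132 regions passed, 5 of them at these genes, where IL21R was added with merged-region levels of 1.69, 1.81 and 1.50 untreated and 2.56, 2.78 and 2.37 treated (log2 change 0.63, SE 0.11, limma adjusted p = 0.0893 without and 0.00115 with the block). RGS3 and CXorf65 were also higher and SYNPO lower in that fit.

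The response in Raji was compared with that in REH over 53 H3K4me2 regions at these genes that were called in all 12 libraries. By the interaction term in limma 0 of the 53 differed at an adjusted p under 0.05, beside 2 of 7267 regions (0.0275%) over the whole table. At an unadjusted p under 0.05 there were 11 of the 53 and 479 of the 7267. The smallest adjusted p was 0.330, at RGS3, whose log2 change was 0.73 in REH and 0.14 in Raji.

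In NALM6, 32 H3K4me2 regions and 1 H3K4me3 region at these genes were tested, and 0 passed in limma, as did 0 of 4128 (0%) and 0 of 3838 (0%) of all regions. At an unadjusted p under 0.05 there were 1 of 32 and 0 of 1, and 56 and 7 over all regions. The groups did not overlap at 10 of the 32, against 10.4% of all regions, and all 10 were lower after bryostatin, which is 31.2% of the 32, against 6.27% of all regions lower without overlap. The median log2 difference over the 32 was -0.19, against -0.02 over all regions, and it was 0.03 with the mean signal per base. FUT7 had 4.04, 3.16 and 3.91 untreated and 2.45, 2.67 and 2.80 treated (log2 difference -0.48, SE 0.19, limma adjusted p = 0.999). VPREB1, the H3K4me3 region, stood at 1.10, 1.72 and 1.73 untreated and 1.17, 1.52 and 2.18 treated, and its groups overlapped. In simulated data with independent noise the NALM6 fit recovered 0% of H3K4me2 changes of 1 on the log2 scale, against 94% in REH and 60% in Raji. The absence of calls in NALM6 is thus no measure of the absence of such a change.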

How the data were processed

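H3K4me2, H3K4me3 and H3K27me3 were profiled by Cut&Tag in 54 libraries, 3 per line, mark and treatment. Per the submitters' processing notes and the study's methods, the authors trimmed the reads (Trim Galore), aligned them to hg38 (Bowtie2), scaled coverage as RPKM and ran SEACR on single libraries. Versions are not given in the sources used here. The deposited signal values are the summed and the highest coverage of each peak. The signal of NALM6 replicate 1 is scaled differently by a factor not stated, so only values relative to the library median are used. From the RPKM steps the other 48 libraries held 5.12 to 47.9 M mapped reads (median 18.8 M), and the lowest peak called differed between libraries. The authors' own DESeq2 comparisons were not used.

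Starts came from GENCODE 44. For each line and mark, peaks of its 6 libraries that shared at least 1 bp became 1 region. Regions called in all 6 entered a limma 3.58.1 model (R 4.3.3) of log2 total signal, centred on the median of each library, with a trended prior and Benjamini-Hochberg adjustment over all of them. In simulated data the REH H3K4me2 fit recovered 94% of log2 changes of 1 and 48% of 0.5, with 9 false of 151 calls over 10791 regions. The simulated noise was independent between libraries and was added to regions already called. These rates therefore need not hold for the real calls. Same-numbered libraries deviated together in REH H3K4me2 (correlations 0.131 to 0.205), Raji H3K4me3 (0.482 to 0.540), NALM6 H3K4me2 (0.402 to 0.446) and NALM6 H3K4me3 (0.634 to 0.676), and not in Raji H3K4me2 (-0.308 to 0.417).

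The genes and lists were chosen with earlier results of these data known. Genes were named by level in REH, by H3K4me3 in Raji or NALM6, by H3K27me3 there, by list, by distance to H3K4me3, and by the test (up to 10 that passed, or the 3 with the smallest p); others were named after their values were seen. Some listed genes are not reported here by name. Printed sequences are from RefSeq (GRCh38.p14); shares come from hg38. The alternatives were the peak measure, centring, stricter peaks, merging, the block, the start window and each library left out. Python 3.11.15, pandas 2.3.3, numpy 2.4.6 and matplotlib 3.10.9 were used.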

Additional observations from a re-analysis of the deposited data

How the results depend on the processing

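The number of genes in the class depended on how peaks were called. It was 220 with a 500 bp window, 241 with 2 kb, 193 with the canonical start alone and 230 with H3K4me3 judged in untreated libraries only. It was 1071 with the upper 0.5 of peaks by total signal (50 shared with the 229) and 1097 with equal numbers of peaks taken per library (132 shared). Leaving out a replicate number gave 265 to 519, the highest without replicate 1. Equal numbers of peaks per library were also taken in the other lines, set by the untreated library with the fewest for each mark. The mean share of the genes in Raji was then 31.6% for H3K4me2, 21.1% for H3K4me3 and 4.37% for H3K27me3. In NALM6 it was 25.2%, 2.18% and 9.02% in the same order. The share of all genes was not computed at equal peak numbers, so these values cannot be set against all genes.

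In the REH H3K4me2 test, the maximum signal gave 51 regions in all and 4 at these genes, the mean signal per base 1 and 0, and stricter peaks 55 and 5. Regions called in the 5 libraries other than bryostatin replicate 3, an alternative chosen after seeing the data, gave 346 and 25. The replicate block gave 305 and 21. Leaving out each library gave 62 to 352 in all and 5 to 25 at these genes. Of the 15 regions, 5 passed with each library left out in turn, 4 with the maximum signal and 0 with the mean signal per base. BATF reversed with the maximum signal, at -0.00947 on the log2 scale (limma adjusted p = 0.994).

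In the Raji H3K4me3 test, the maximum signal and the mean signal per base gave 0 in all and 0 at these genes, and stricter peaks 2 and 0. The block gave 132 and 5. Leaving out each library gave 0 to 19 in all and 0 to 1 at these genes. Raji H3K4me2 gave 0 to 1 region in all with a library left out, and 0 at these genes. The block changed no other call, with 0 in Raji H3K4me2 and in both NALM6 tests. The cause of these differences was not tested. A missing peak is no measure of a missing mark at these depths.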
